A study of Homo sapiens with 21 samples.

Results

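The amino acid transporter genes of 7 families, SLC1, SLC3, SLC6, SLC7, SLC36, SLC38 and SLC43, were described in human C3A hepatoma cells, a clonal derivative of the HepG2 line. The members were all protein-coding genes of the deposited tables whose symbol is one of these family names followed by A and a number, 48 of 28808 listed genes, of which 15877 were protein-coding. RNA sequencing gave 21 libraries, all from wild-type C3A cells grown in a serum-containing medium with added glutamine and non-essential amino acids. Of these, 3 libraries each came from cells exposed for 48 h to glyphosate (a herbicide) at 5.6 µM (here 0.95 µg/mL), to AMPA (aminomethylphosphonic acid, into which glyphosate breaks down) at 34 µM (3.7 µg/mL), and to the auxin-type herbicide 2,4-D at 2.5 µM (here 0.56 µg/mL). The 2 mixtures, AMPA+2,4-D and glyphosate+2,4-D, held each compound at the concentration used alone and gave 3 libraries each. Cells with no exposure gave 6 libraries, numbered 1 to 6 in the labels. No label states that the replicates were grown as cultures of their own, and p-values therefore measure the spread between these libraries, which may be technical.

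Amino acid transporters are membrane proteins that set which amino acids enter, leave or are traded across the cell surface and the lysosomal membrane. SLC3 proteins are heavy chains that pair with SLC7 light chains, and the light chain of such a pair does the transport. SLC1 and SLC38 carriers bring in neutral amino acids or glutamate with sodium, SLC6 carriers use sodium and chloride and also move creatine, taurine, betaine and neurotransmitters, SLC36 carriers move small amino acids with protons, and SLC43 carriers let large neutral amino acids cross down their gradient. In hepatocytes these carriers feed protein synthesis, glutathione synthesis, nitrogen disposal and the sensing of amino acids by mTORC1. Several are known targets of ATF4, a transcription factor made in larger amounts when amino acids are scarce, which binds DNA at composite C/EBP-ATF sites.

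Because several members are ATF4 targets, the RefSeq promoters of the members were searched for one spelling of the composite site, TGATGNAA, on both strands. The window was 250 bases before to 50 bases after each RefSeq start site (GRCh38.p14), and 38 of the 48 members had an entry. Among all promoters of that length 1270 of 35116 held a match, or 3.62%. Tested members held one in 5 of 38 promoters, or 13.2%. These were promoters of 5 of the 25 tested members with an entry: SLC1A4, SLC1A5, SLC7A1, SLC38A1 and SLC3A2. The first 3 belong to the genes that were lower in every exposure below, and 4 of the matched promoters are printed from 250 bases before to 30 bases after the start, 5′ to 3′ along the gene, to show the site and its place. In SLC3A2 the match begins at base 38 after the start, outside the printed window, and that promoter is not shown. Capitals mark the match, which in SLC1A4 is the reverse complement of the searched letters.
SLC1A4: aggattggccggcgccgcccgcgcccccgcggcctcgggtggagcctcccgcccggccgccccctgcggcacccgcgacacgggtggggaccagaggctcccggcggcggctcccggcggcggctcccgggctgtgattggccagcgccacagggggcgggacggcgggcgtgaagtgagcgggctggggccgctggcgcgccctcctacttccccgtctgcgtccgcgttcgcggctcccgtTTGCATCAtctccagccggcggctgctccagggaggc
SLC1A5: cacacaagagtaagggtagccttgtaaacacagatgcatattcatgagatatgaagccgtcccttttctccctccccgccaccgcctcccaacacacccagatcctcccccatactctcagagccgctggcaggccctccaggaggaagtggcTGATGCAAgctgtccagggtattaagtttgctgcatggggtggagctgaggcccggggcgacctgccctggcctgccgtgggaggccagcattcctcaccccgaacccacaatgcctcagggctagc
SLC7A1: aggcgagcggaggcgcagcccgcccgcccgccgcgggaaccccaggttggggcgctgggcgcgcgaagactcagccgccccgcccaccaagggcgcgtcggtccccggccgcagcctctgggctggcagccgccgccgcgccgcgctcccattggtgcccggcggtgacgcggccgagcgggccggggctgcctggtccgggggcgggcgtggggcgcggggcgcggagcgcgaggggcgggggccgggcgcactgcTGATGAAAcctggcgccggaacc
SLC38A1: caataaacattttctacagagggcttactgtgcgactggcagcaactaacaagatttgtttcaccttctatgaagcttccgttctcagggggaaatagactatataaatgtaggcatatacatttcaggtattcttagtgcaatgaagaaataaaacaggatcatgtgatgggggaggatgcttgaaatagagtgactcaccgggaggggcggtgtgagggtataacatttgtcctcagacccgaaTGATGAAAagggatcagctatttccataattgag
The SLC1A4 promoter, at chr2:64989149-64989428 on the forward strand, is 1 of 2 listed for the gene, and the match begins 7 bases before the start site. For SLC1A5 the stretch is chr19:46784785-46785064 on the reverse strand, 1 of 3 listed promoters, with the match 97 bases before the start. The only promoter listed for SLC7A1, chr13:29595659-29595938 on the reverse strand, has the match at base 8 after the start. For SLC38A1, chr12:46266487-46266766 on the reverse strand, 1 of 2 listed promoters, it lies 4 bases before the start. The start sites of the matched promoters of SLC1A4, SLC1A5, SLC38A1 and SLC3A2 lie inside the annotated span of the gene. Which start sites C3A cells use was not tested. Of the genes lower in every exposure 3 of 12 with an entry held a match, of those higher in every exposure 0 of 6, and of the other tested members 2 of 7. A match is a string of letters and does not show binding, and no other motif was searched.

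Libraries held 15.2 to 24.35 M reads as recovered from the deposited values, 17.41 to 19.77 M of them in unexposed cells. The values are FPKM, fragments scaled to gene length and to a library total that is not stated. They summed to 294984 to 327953 FPKM in exposed libraries and 276823 to 294902 FPKM in unexposed ones. Comparisons between libraries therefore depend on that scaling. The unexposed libraries formed 2 sets, replicates 1 to 3 (the first set) and 4 to 6 (the second), between which 31.6% of all tested genes differed, and the labels name no reason for it. Each comparison is therefore given against all 6 and, where it matters, against each set. All 15 hepatocyte markers examined, albumin and alpha-fetoprotein among them, were above 1 FPKM on average, with a summed level of 14770 to 17130 FPKM in exposed libraries, 9665 to 9982 FPKM in the first unexposed set and 13520 to 14970 FPKM in the second. No fibroblast, endothelial or blood marker reached 1 FPKM, and of the cholangiocyte markers KRT19 and SOX9 did, their list summing to 57.6 to 68.3 FPKM in exposed libraries, against 58.4 to 63.0 FPKM in replicates 1 to 3 and 57.8 to 58.3 FPKM in replicates 4 to 6. The part of these markers in the transporter results was not tested. All 5 exposures used the same unexposed libraries, so their results are not independent of each other, and the exposures cannot be told apart from anything else that all exposed libraries shared. In bulk RNA, fewer cells of a kind and less RNA per cell cannot be told apart.

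Of the 48 members 31 reached at least 1 FPKM in at least 3 libraries and were tested among 13405 genes. They comprised 4 of 6 SLC1 genes, 1 of 2 SLC3 genes, 7 of 13 SLC6 genes, 6 of 10 SLC7 genes, 1 of 3 SLC36 genes, 10 of 11 SLC38 genes and 2 of 3 SLC43 genes. The 17 others were SLC1A1, SLC1A3, SLC3A1, SLC6A3, SLC6A13, SLC6A16, SLC6A18, SLC6A19, SLC6A20, SLC7A7, SLC7A8, SLC7A10, SLC7A13, SLC36A2, SLC36A4, SLC38A8 and SLC43A3. Of these 10 had at most 10 reads in every library. The highest were SLC36A4, of the SLC36 family, with up to 0.709 FPKM, and SLC6A19, the main neutral amino acid carrier of gut and kidney, with up to 0.568 FPKM. Of the tested members, SLC6A12 and SLC38A11 reached 1 FPKM in unexposed libraries alone, and SLC38A4 in exposed libraries alone. These 3 passed the filter only through the group where they were higher, so their calls and separation below are not independent of it.

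Against all unexposed libraries, most tested transporter genes differed in every exposure, and more were lower than higher. In each exposure 6 or 7 members were higher and 15 to 17 lower (limma on log2(FPKM + 1), adjusted p under 0.05 over all 13405 genes). With glyphosate 6 were higher and 17 lower, while of all genes 52.7% were called, 27.7% higher and 25.1% lower. With AMPA 7 were higher and 17 lower (52.8% of all genes, 28.0% and 24.8%), and with 2,4-D also 7 and 17 (47.6% of all genes, 25.0% and 22.6%). In the mixtures 6 were higher and 15 lower with glyphosate+2,4-D (48.1% of all genes, 25.4% and 22.7%), and 7 and 15 with AMPA+2,4-D (50.4% of all genes, 26.0% and 24.4%). The share of members called lower was thus 48.4% to 54.8%, beside 22.6% to 25.1% of all genes, and the share called higher 19.4% to 22.6%, beside 25.0% to 28.0%. The median change of the members was -0.29 to -0.19 on the log2 scale, beside 0.00 to 0.01 for all tested genes. Rescaled to TPM, which fixes the sum of each library, the median of all genes moved to -0.14 to -0.08, with 2127 to 2659 genes higher and 4134 to 5189 lower in an exposure, where FPKM gave 3345 to 3758 and 3034 to 3361. Of the members 5 to 7 were then higher and 17 to 21 lower. Folds below are differences of log2(FPKM + 1), which understate the change of genes near or below 1 FPKM.

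The 6 genes higher in all 5 exposures were SLC1A7, SLC6A8, SLC6A14, SLC7A6, SLC38A2 and SLC38A4, beside 18.2% of all genes. The 15 genes lower in all 5, beside 15.4% of all genes, were SLC1A4, SLC1A5, SLC6A4, SLC6A9, SLC6A12, SLC7A1, SLC7A5, SLC7A9, SLC7A11, SLC36A1, SLC38A3, SLC38A5, SLC38A7, SLC38A10 and SLC43A1. SLC1A2, SLC38A9 and SLC38A11 were called in some exposures. The remaining 7, SLC3A2, SLC6A6, SLC6A11, SLC7A2, SLC38A1, SLC38A6 and SLC43A2, were called in none, beside 30.5% of all genes. For 18 members, the 15 exposed libraries lay wholly outside the 6 unexposed ones, 5 above and 13 below (13.8% and 11.6% of all genes).

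**Figure D1:**
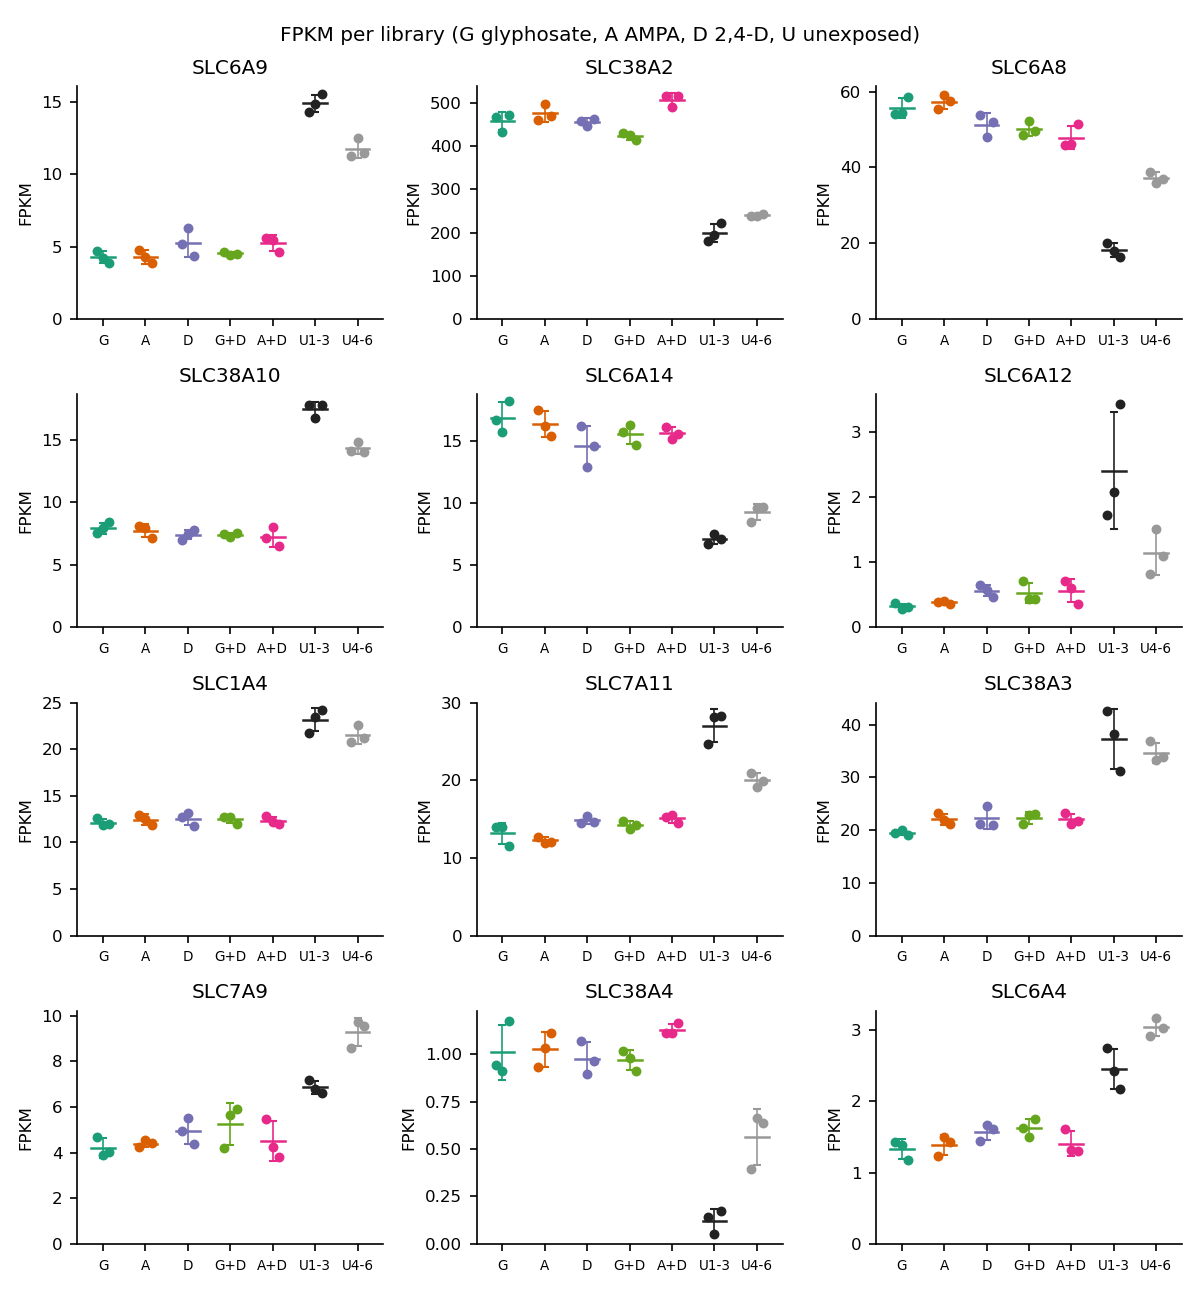
FPKM of the 12 members with the largest mean change among those called in all 5 exposures with no overlap, 1 panel per gene (linear axis from 0). Points are libraries, bars the group mean ± SD (n = 3), with unexposed replicates 1 to 3 and 4 to 6 apart, and in every panel all 15 exposed libraries lie on one side of all 6 unexposed ones.

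The heavy chain SLC3A2 (CD98, chr11:62856102-62888875, forward strand), which brings SLC7A5, SLC7A6 and SLC7A11 to the cell surface, was on average the second most abundant member. It had 109, 106 and 108 FPKM with glyphosate, 112, 109 and 105 FPKM with AMPA, 106, 108 and 104 FPKM with 2,4-D, 109, 105 and 105 FPKM with glyphosate+2,4-D and 103, 116 and 107 FPKM with AMPA+2,4-D. Unexposed cells had 141, 141 and 155 FPKM in replicates 1 to 3 and 102, 99.8 and 102 FPKM in replicates 4 to 6. The exposed libraries lay below all of the first set and above all of the second. Its difference from all 6 unexposed libraries was -0.19 to -0.16 (SE 0.11, limma adjusted p 0.172 to 0.253) and it was called in no exposure. Against replicates 1 to 3 it was lower in all 5, with changes of -0.45 to -0.42 (largest limma adjusted p 2e-07), whereas against replicates 4 to 6 the difference was 0.07 to 0.10 and not called. The other heavy chain, SLC3A1, which pairs with SLC7A9, had at most 30 reads and 0.225 FPKM in any library and was not tested. Its values were 0.134, 0.127 and 0.175 FPKM with glyphosate, 0.116, 0.131 and 0.162 FPKM with AMPA, 0.0174, 0.048004 and 0.138 FPKM with 2,4-D, 0.195, 0.136 and 0.103 FPKM with glyphosate+2,4-D and 0.0434, 0.0904 and 0 FPKM with AMPA+2,4-D, with 0.126, 0.123 and 0.213 FPKM in unexposed replicates 1 to 3 and 0.218, 0.225 and 0.122 FPKM in replicates 4 to 6.

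Among the 6 tested light chains and cationic carriers of the SLC7 family 4 were lower in every exposure, 1 was higher and 1 was not called. SLC7A5 (LAT1, chr16:87830023-87869488, reverse strand), which trades glutamine for leucine and other large neutral amino acids, had 85.9, 84.5 and 79.8 FPKM with glyphosate, 88.2, 81.9 and 76.9 FPKM with AMPA, 80.8, 86.7 and 80.7 FPKM with 2,4-D, 80.8, 82.8 and 81.98 FPKM with glyphosate+2,4-D and 76.7, 85.3 and 78.97 FPKM with AMPA+2,4-D. Unexposed cells had 114, 108 and 107 FPKM in replicates 1 to 3 and 122, 116 and 116 FPKM in replicates 4 to 6. No exposed library reached the lowest unexposed one, and the sets of unexposed libraries lay close together. Its change was -0.50 to -0.45 (SE 0.05, largest limma adjusted p 9e-07), and it was lower against each set in all 5 exposures.

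SLC7A11 (xCT, chr4:138164097-138242349, reverse strand) imports cystine for glutathione in exchange for glutamate. Its levels were 14.05, 13.9 and 11.6 FPKM with glyphosate, 12.7, 11.96 and 12.1 FPKM with AMPA, 14.5, 15.4 and 14.7 FPKM with 2,4-D, 14.8, 13.7 and 14.2 FPKM with glyphosate+2,4-D and 15.2, 15.6 and 14.5 FPKM with AMPA+2,4-D. In unexposed cells they were 24.7, 28.2 and 28.4 FPKM in replicates 1 to 3 and 20.96, 19.2 and 19.9 FPKM in replicates 4 to 6. The exposed values were the lowest with AMPA and with glyphosate replicate 3, and every one was below every unexposed value. The change was -0.87 to -0.59 (SE 0.10, largest limma adjusted p 0.00011), and -0.66 to -0.39 against replicates 4 to 6 alone. Its exons share 865 bases with the antisense gene SLC7A11-AS1, which averaged 0.126 FPKM, and whether counting used strand is not given in the sources used here.

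SLC7A9, the light chain of SLC3A1 that takes up cystine and cationic amino acids in the kidney, had 4.696, 3.89 and 4.03 FPKM with glyphosate, 4.23, 4.54 and 4.42 FPKM with AMPA, 4.95, 5.51 and 4.39 FPKM with 2,4-D, 4.22, 5.66 and 5.897 FPKM with glyphosate+2,4-D and 5.48, 4.25 and 3.82 FPKM with AMPA+2,4-D. Unexposed cells had 7.18, 6.81 and 6.597 FPKM in replicates 1 to 3 and 8.598, 9.74 and 9.54 FPKM in replicates 4 to 6. Exposed libraries were the lower ones throughout, and replicates 4 to 6 stood highest. The change was -0.79 to -0.53 (SE 0.12, largest limma adjusted p 0.00153). SLC7A1 (CAT1), a carrier of arginine and lysine that needs no heavy chain, ran from 25.01 to 28.2 FPKM in exposed and 32.96 to 36.5 FPKM in unexposed libraries. It was lower, with a change of -0.40 to -0.32 (SE 0.04, largest limma adjusted p 3.4e-06).

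SLC7A6 (y+LAT2), which exchanges arginine for neutral amino acids and glutamine, was the SLC7 gene that was higher. Its exposed libraries had 10.99, 11.6 and 13.02 FPKM as lowest, median and highest, against 6.64, 6.95 and 7.52 FPKM in unexposed replicates 1 to 3 and 9.45, 9.36 and 9.22 FPKM in replicates 4 to 6. The exposed values stood above all unexposed ones, and the change was 0.41 to 0.55 (SE 0.09, largest limma adjusted p 0.000834). SLC7A6 shares 3371 of its 7588 exon bases, 44.4%, with SLC7A6OS on the opposite strand, which averaged 4.96 FPKM. Whether counting used strand is not given, so how reads in the shared bases were assigned is not known. SLC7A2 (CAT2), another arginine carrier, had 46.7, 50.3 and 56.1 FPKM in exposed cells, against 48.03, 47.3 and 49.5 FPKM in unexposed replicates 1 to 3 and 60.9, 60.5 and 63.2 FPKM in replicates 4 to 6. The exposed libraries overlapped the first set and lay below the second, and the difference from all 6 was -0.14 to -0.02 and not called. Under TPM it was called lower with glyphosate, AMPA and glyphosate+2,4-D (limma adjusted p 0.0123, 0.00396 and 0.00921).

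**Figure D2:**
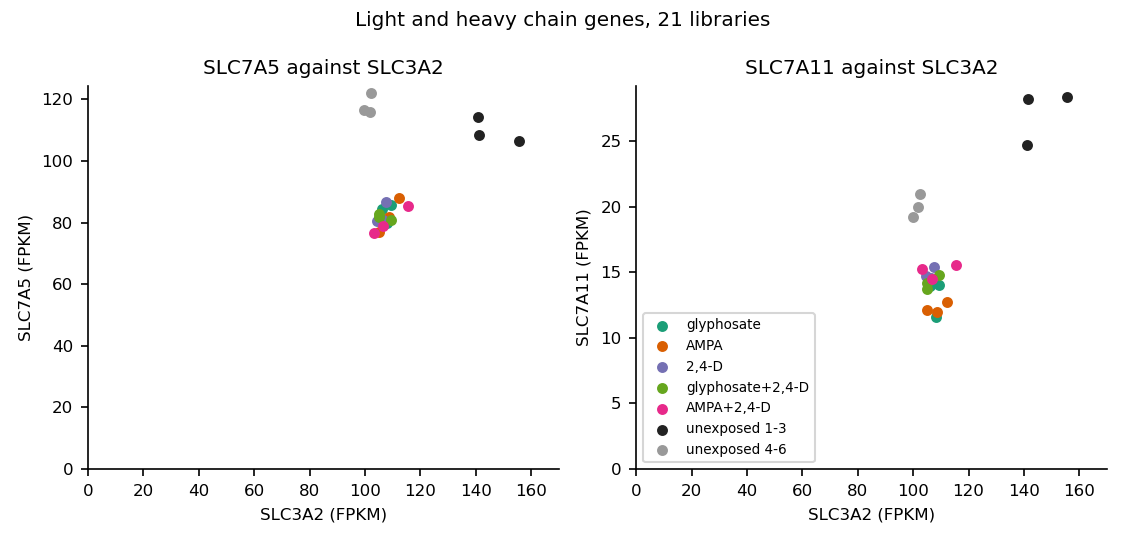
SLC7A5 (left) and SLC7A11 (right) against their heavy chain SLC3A2, in FPKM on linear axes from 0, 1 point per library. Exposed libraries form 1 group, unexposed replicates 1 to 3 have more SLC3A2 and replicates 4 to 6 have SLC3A2 close to that of exposed cells but more of both light chains.

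The balance of light to heavy chain RNA followed from these levels. The ratio of SLC7A5 to SLC3A2 was 0.732 to 0.806 in exposed libraries, 0.685 to 0.812 in the first unexposed set and 1.14 to 1.19 in the second. For SLC7A11 over SLC3A2 it was 0.107 to 0.148 in exposed libraries and 0.175 to 0.205 in the 6 unexposed ones. The first ratio separated exposed cells from 1 unexposed set and the second from both.

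In the SLC1 family both neutral amino acid exchangers were lower, and the calls of SLC1A5 and of the glutamate carriers depended on the unexposed set. SLC1A4 (ASCT1, chr2:64988477-65023865, forward strand), which exchanges alanine, serine and cysteine, had 12.6, 11.8 and 11.95 FPKM with glyphosate, 12.98, 12.5 and 11.8 FPKM with AMPA, 12.7, 13.2 and 11.8 FPKM with 2,4-D, 12.8, 12.7 and 11.998 FPKM with glyphosate+2,4-D and 12.8, 12.2 and 12.02 FPKM with AMPA+2,4-D. Unexposed cells had 21.8, 23.5 and 24.2 FPKM in replicates 1 to 3 and 20.8, 22.6 and 21.2 FPKM in replicates 4 to 6. Exposed libraries spanned a narrow range well below the unexposed ones, and the change was -0.83 to -0.78 (SE 0.05, largest limma adjusted p 1.4e-09). The unexposed sets differed by 0.10 (limma adjusted p 0.138), which was called without unexposed replicate 1 (limma adjusted p 0.0487).

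SLC1A5 (ASCT2, chr19:46774883-46788594, reverse strand), a main route of glutamine uptake, had 80.2, 77.2 and 78.1 FPKM with glyphosate, 84.6, 76.97 and 74.9 FPKM with AMPA, 78.8, 82.1 and 78.4 FPKM with 2,4-D, 77.4, 78.1 and 76.6 FPKM with glyphosate+2,4-D and 73.7, 79.4 and 70.5 FPKM with AMPA+2,4-D. Unexposed cells had 94.6, 95.3 and 93.8 FPKM in replicates 1 to 3 and 83.5, 84.5 and 82.1 FPKM in replicates 4 to 6. AMPA replicate 1 was above all of unexposed replicates 4 to 6, so the groups overlapped. SLC1A5 was lower, with changes of -0.25 to -0.15 (SE 0.05, largest limma adjusted p 0.0242), and with a change of -0.16 to -0.06 against replicates 4 to 6, where 2 of 5 exposures were called. Its calls with AMPA and 2,4-D were lost without AMPA replicate 2 or 3 (limma adjusted p 0.0514 and 0.0773) and without 2,4-D replicate 1 or 3 (0.0792 and 0.0874). Of its 3332 exon bases 780 overlap the opposite-strand gene AC008622.2, which averaged 1.92 FPKM.

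SLC1A2 (EAAT2) and SLC1A7 (EAAT5) take up glutamate. SLC1A2 had 2.61, 2.96 and 3.698 FPKM as lowest, median and highest in exposed cells, against 0.725, 0.661 and 0.7299 FPKM in unexposed replicates 1 to 3 and 2.81, 2.82 and 2.92 FPKM in replicates 4 to 6. SLC1A7 had 1.83, 2.35 and 2.88 FPKM in exposed cells, against 0.162, 0.258 and 0.239 FPKM in unexposed replicates 1 to 3 and 2.05, 1.89 and 1.69 FPKM in replicates 4 to 6, from as few as 18 reads. For both genes the first set was low while the second lay at or close to the exposed level. SLC1A2 differed by 0.51 to 0.79 (SE 0.25, limma adjusted p 0.0135 to 0.0992) and was called higher with AMPA, with 2,4-D alone and with AMPA+2,4-D. Against replicates 4 to 6 it was called in AMPA+2,4-D alone among the 5. Its calls were lost without any one AMPA library or unexposed replicate 1, 2 or 3 for AMPA (limma adjusted p 0.0617 to 0.114), without any one 2,4-D library or those same unexposed libraries for 2,4-D (0.0747 to 0.0936), and without replicate 3 for AMPA+2,4-D (0.0525). Without unexposed replicate 4, 5 or 6 it was also called with glyphosate (0.0164 to 0.0188) and with glyphosate+2,4-D (0.0343 to 0.0389). SLC1A7 was higher by 0.71 to 0.92 (SE 0.27, largest limma adjusted p 0.0338), and against replicates 4 to 6 it was called in 3 of 5 exposures. All 5 of its calls were lost when only the 2 groups compared were fitted (limma adjusted p 0.0644 to 0.137). The call with glyphosate was also lost without glyphosate replicate 1 (0.0655), that with AMPA without AMPA replicate 2 (0.0514), and that with glyphosate+2,4-D without any one of its libraries or unexposed replicate 1, 2 or 3 (0.0597 to 0.102).

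SLC38A2 (SNAT2, ENSG00000134294, chr12:46358189-46372867, reverse strand), a sodium-coupled importer of alanine, serine and glutamine that mammalian cells raise when starved of amino acids or under hypertonic stress, was the most abundant member in every library. It had 468, 433 and 472 FPKM with glyphosate, 459.9, 497 and 470.3 FPKM with AMPA, 459, 446 and 463 FPKM with 2,4-D, 429.6, 425 and 413 FPKM with glyphosate+2,4-D and 516, 491 and 515 FPKM with AMPA+2,4-D. Unexposed cells had 181, 195 and 223 FPKM in replicates 1 to 3 and 238, 239 and 244 FPKM in replicates 4 to 6. Every exposed library was far above every unexposed one, with AMPA+2,4-D the highest group and glyphosate+2,4-D the lowest of the 5. SLC38A2 averaged 464 ± 31.4 FPKM in exposed and 219.8 ± 26.1 FPKM in unexposed libraries (SD, n = 15 and 6), a ratio of 2.11. Its change was 0.95 to 1.21 (SE 0.07, largest limma adjusted p 2.3e-08), 1.08 to 1.35 against replicates 1 to 3 and 0.81 to 1.08 against replicates 4 to 6.

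The summed transporter RNA depended on SLC38A2. The 48 members summed to 1086 ± 34.6 FPKM in exposed libraries (SD, n = 15), against 947 ± 17.6 FPKM in unexposed ones (SD, n = 6). Without SLC38A2 the order was the other way, 622 ± 10.6 FPKM in exposed and 727.5 ± 23.1 FPKM in unexposed libraries. SLC38A2 made up 40.6% to 45.7% of the sum in exposed libraries, 19.5% to 22.8% in the first unexposed set and 25.0% to 25.8% in the second. As a share of all FPKM of a library, whose total also differed, the 48 members made up 0.351% ± 0.0152 in exposed and 0.333% ± 0.0102 in unexposed libraries, with overlapping ranges of 0.317% to 0.372% and 0.320% to 0.352%, and glyphosate+2,4-D, at 0.333% ± 0.0139, lay at the unexposed level. Without SLC38A2 the share was 0.201% ± 0.00736 in exposed and 0.256% ± 0.0132 in unexposed libraries, without overlap. These sums and shares are given without a test.

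**Figure D3:**
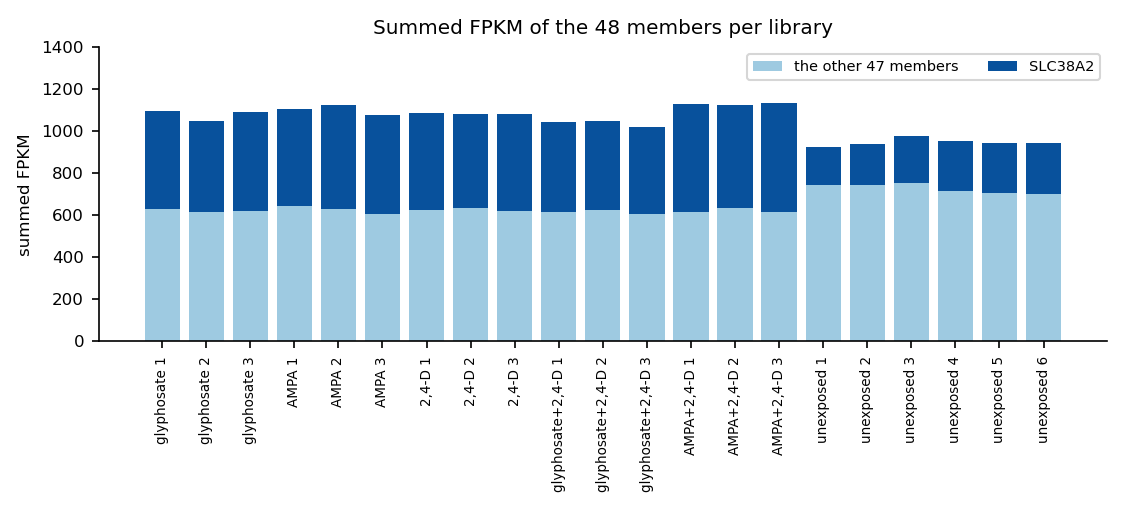
Summed FPKM of the 48 members in each of the 21 libraries, split into SLC38A2 (dark) and the other 47 members (light), on a linear axis from 0. The dark part is larger in each of the 15 exposed libraries than in any unexposed one, and the light part smaller.

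SLC38A1 and SLC38A4 lie beside SLC38A2 on chromosome 12, at chr12:46183063-46270017 and chr12:46764761-46832408, all on the reverse strand. SLC38A1 (SNAT1), a carrier with much the same substrates, had 44.9, 49.2 and 53.3 FPKM in exposed cells, against 47.7, 51.6 and 54.3 FPKM in unexposed replicates 1 to 3 and 42.5, 42.4 and 43.8 FPKM in replicates 4 to 6. It overlapped the first set and lay above the second, with a difference from all 6 of 0.02 to 0.14 (SE 0.07) that was called in no exposure (limma adjusted p 0.0804 to 0.8004). It was called without unexposed replicate 3 with 2,4-D (0.0332) and without replicate 2 or 3 with AMPA+2,4-D (0.0383 and 0.0126). The ratio of SLC38A2 to SLC38A1 was 8.51 to 10.0 in exposed libraries, 3.78 to 4.10 in the first unexposed set and 5.56 to 5.65 in the second.

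SLC38A4 (SNAT4), a liver-enriched importer of neutral and cationic amino acids, was low in all libraries and lowest in unexposed replicates 1 to 3. It had 0.943, 0.9095 and 1.17 FPKM with glyphosate, 0.929, 1.03 and 1.11 FPKM with AMPA, 1.07, 0.894 and 0.963 FPKM with 2,4-D, 1.01, 0.979 and 0.911 FPKM with glyphosate+2,4-D and 1.11, 1.11 and 1.16 FPKM with AMPA+2,4-D. Unexposed cells had 0.141, 0.0517 and 0.174 FPKM in replicates 1 to 3 and 0.396, 0.664 and 0.636 FPKM in replicates 4 to 6. Every exposed library was above every unexposed one in FPKM. The reads per library were 4 to 14 in unexposed replicates 1 to 3, 30 to 56 in replicates 4 to 6 and 56 to 91 in exposed cells. The change was 0.57 to 0.69 (SE 0.12, largest limma adjusted p 0.000925), while the ratio of mean FPKM was 2.97. No unexposed library reached 1 FPKM, so this gene passed the filter through exposed libraries alone.

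The system N carriers SLC38A3 and SLC38A5, which move glutamine, histidine and asparagine in either direction, were both lower. SLC38A3 (SNAT3), the main system N carrier of the liver, had 19.5, 20.005 and 19.1 FPKM with glyphosate, 23.2, 21.8 and 21.2 FPKM with AMPA, 21.2, 24.5 and 20.99 FPKM with 2,4-D, 21.1, 22.8 and 23.1 FPKM with glyphosate+2,4-D and 23.2, 21.2 and 21.7 FPKM with AMPA+2,4-D. Unexposed cells had 42.5, 38.2 and 31.2 FPKM in replicates 1 to 3 and 36.8, 33.2 and 33.9 FPKM in replicates 4 to 6. Exposed values were below all unexposed ones, although unexposed replicates 1 to 3 were themselves spread widely. The change was -0.84 to -0.66 (SE 0.07, largest limma adjusted p 1.4e-06). SLC38A5 had 9.77, 11.8 and 12.6 FPKM in exposed cells as lowest, median and highest, against 14.6, 14.2 and 14.6 FPKM in unexposed replicates 1 to 3 and 13.2, 14.4 and 13.1 FPKM in replicates 4 to 6, a change of -0.29 to -0.18 (SE 0.06, largest limma adjusted p 0.0215). Its calls were lost without glyphosate replicate 1 (limma adjusted p 0.0784) and without 2,4-D replicate 3 (0.0952).

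SLC38A10, a less studied member of the family at chr17:81245000-81295547 on the reverse strand, had the second largest decrease on the log2(FPKM + 1) scale. It had 7.52, 7.92 and 8.405 FPKM with glyphosate, 8.102, 7.97 and 7.14 FPKM with AMPA, 7.01, 7.496 and 7.77 FPKM with 2,4-D, 7.49, 7.205 and 7.53 FPKM with glyphosate+2,4-D and 7.13, 8.005 and 6.52 FPKM with AMPA+2,4-D. Unexposed cells had 17.8, 16.7 and 17.8 FPKM in replicates 1 to 3 and 14.1, 14.8 and 14.1 FPKM in replicates 4 to 6. All exposed libraries were below all unexposed ones, with a ratio of mean FPKM of 0.475. Its change was -1.04 to -0.91 (SE 0.08, largest limma adjusted p 2.5e-08).

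The family has 2 lysosomal members among the tested genes. SLC38A7, which exports glutamine from lysosomes, had 3.398, 3.77 and 4.16 FPKM in exposed cells, against 5.39, 5.55 and 5.77 FPKM in unexposed replicates 1 to 3 and 4.82, 4.06 and 4.31 FPKM in replicates 4 to 6, a change of -0.37 to -0.23 (SE 0.07, largest limma adjusted p 0.0156). Its call with AMPA+2,4-D was lost without AMPA+2,4-D replicate 3 (0.0662). SLC38A9, the arginine-sensing lysosomal partner of the Rag GTPases, had 2.01, 2.01 and 1.88 FPKM with glyphosate, 2.104, 2.398 and 2.18 FPKM with AMPA, 2.15, 2.199 and 2.34 FPKM with 2,4-D, 2.27, 2.51 and 2.36 FPKM with glyphosate+2,4-D and 2.496, 2.42 and 2.58 FPKM with AMPA+2,4-D. In unexposed cells it had 2.51, 2.67 and 2.51 FPKM in replicates 1 to 3 and 2.39, 2.48 and 2.52 FPKM in replicates 4 to 6. Glyphosate libraries were the lowest and AMPA+2,4-D libraries lay among the unexposed ones. It was lower with glyphosate, with a change of -0.24 (limma adjusted p 0.000102), with AMPA, at -0.12 (0.0206) and with 2,4-D, at -0.12 (0.0252). The mixtures differed by -0.06 and -0.01 and were not called. Its AMPA call was lost without AMPA replicate 1 or 3 (0.1165 and 0.0746), and its 2,4-D call without 2,4-D replicate 1 or 2 (0.108 and 0.0765) or unexposed replicate 2 (0.0505).

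Of the 2 remaining SLC38 genes, SLC38A11 had 0.432, 0.697 and 0.9302 FPKM in exposed cells, against 1.15, 1.12 and 1.13 FPKM in unexposed replicates 1 to 3 and 0.7196, 0.894 and 1.28 FPKM in replicates 4 to 6, and was lower with the 3 single compounds, with changes of -0.41, -0.34 and -0.36. Its AMPA call was lost without AMPA replicate 2 (limma adjusted p 0.0642), and both mixtures were called without unexposed replicate 4 (0.0349 for glyphosate+2,4-D and 0.0279 for AMPA+2,4-D). SLC38A11 passed the filter through unexposed libraries alone. SLC38A6 overlapped between exposed cells, 0.9097 to 1.59 FPKM, and unexposed cells, 0.744 to 1.74 FPKM, and was not called.

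SLC6A9 (GlyT1, ENSG00000196517, chr1:43991500-44031467, reverse strand), the glycine carrier that also supplies glycine for glutathione, had the largest change of all members on the log2(FPKM + 1) scale. It had 4.69, 4.24 and 3.86 FPKM with glyphosate, 4.798, 4.2999 and 3.84 FPKM with AMPA, 5.17, 6.31 and 4.33 FPKM with 2,4-D, 4.64, 4.46 and 4.499 FPKM with glyphosate+2,4-D and 5.63, 5.46 and 4.63 FPKM with AMPA+2,4-D. Unexposed cells had 14.3, 14.9 and 15.5 FPKM in replicates 1 to 3 and 11.3, 12.5 and 11.5 FPKM in replicates 4 to 6. The highest exposed library, 2,4-D replicate 2, was still below the lowest unexposed one. SLC6A9 averaged 4.72 ± 0.671 FPKM in exposed and 13.3 ± 1.81 FPKM in unexposed libraries (SD, n = 15 and 6), a ratio of 0.354. Its change was -1.44 to -1.19 (SE 0.10, largest limma adjusted p 7.6e-08), and -1.28 to -1.03 against replicates 4 to 6.

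SLC6A8, the creatine carrier at chrX:153688099-153696593 on the forward strand, was higher. It had 53.98, 54.4 and 58.6 FPKM with glyphosate, 55.3, 59.2 and 57.6 FPKM with AMPA, 53.9, 47.9 and 51.97 FPKM with 2,4-D, 48.5, 52.2 and 49.7 FPKM with glyphosate+2,4-D and 45.95, 46.3 and 51.4 FPKM with AMPA+2,4-D. Unexposed cells had 20.1, 17.9 and 16.5 FPKM in replicates 1 to 3 and 38.9, 35.9 and 36.9 FPKM in replicates 4 to 6. Exposed libraries were the highest, but the 2 unexposed sets were far apart, with the second between the first and the exposed libraries. Its change was 0.85 to 1.11 (SE 0.21, largest limma adjusted p 0.00289), 1.35 to 1.61 against replicates 1 to 3 and 0.35 to 0.61 against replicates 4 to 6. A near-identical pseudogene copy of this gene, SLC6A10P, exists in the genome, and how reads that fit both were counted is not given in the sources used here.

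SLC6A14, which concentrates neutral and cationic amino acids and lies at chrX:116436622-116461458 on the forward strand, had 16.7, 15.6 and 18.1 FPKM with glyphosate, 17.4, 16.1 and 15.4 FPKM with AMPA, 16.2, 12.9 and 14.5 FPKM with 2,4-D, 15.7, 16.2 and 14.6 FPKM with glyphosate+2,4-D and 16.1, 15.1 and 15.5 FPKM with AMPA+2,4-D. Unexposed cells had 6.68, 7.48 and 7.12 FPKM in replicates 1 to 3 and 8.4997, 9.54 and 9.67 FPKM in replicates 4 to 6. All exposed libraries were above all unexposed ones. The change was 0.77 to 0.97 (SE 0.09, largest limma adjusted p 3.7e-06), with a ratio of mean FPKM of 1.93.

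The betaine and GABA carrier SLC6A12 was low and variable, and by the ratio of mean FPKM, 0.267, it fell further than any other tested member. It had 0.3703, 0.2903 and 0.307 FPKM with glyphosate, 0.395, 0.401 and 0.366 FPKM with AMPA, 0.657, 0.571 and 0.475 FPKM with 2,4-D, 0.712, 0.444 and 0.434 FPKM with glyphosate+2,4-D and 0.7201, 0.6098 and 0.368 FPKM with AMPA+2,4-D. Unexposed cells had 1.73, 2.08 and 3.43 FPKM in replicates 1 to 3 and 0.829, 1.51 and 1.103 FPKM in replicates 4 to 6. Exposed libraries were below all unexposed ones, on 24 to 351 reads per library, and the change was -1.01 to -0.77 (SE 0.19, largest limma adjusted p 0.00246). SLC6A12 passed the filter through unexposed libraries alone, which favours a lower exposed level, and its rank is description only. SLC6A4, the serotonin carrier, had 1.44, 1.38 and 1.18 FPKM with glyphosate, 1.23, 1.51 and 1.43 FPKM with AMPA, 1.45, 1.66 and 1.61 FPKM with 2,4-D, 1.63, 1.51 and 1.76 FPKM with glyphosate+2,4-D and 1.61, 1.32 and 1.302 FPKM with AMPA+2,4-D. Unexposed cells had 2.75, 2.43 and 2.18 FPKM in replicates 1 to 3 and 2.92, 3.17 and 3.03 FPKM in replicates 4 to 6. It too was lower without overlap, with a change of -0.68 to -0.50 (SE 0.08, largest limma adjusted p 5e-05).

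SLC6A6, the taurine carrier, and SLC6A11, a GABA carrier, were called in no exposure against all 6 unexposed libraries. SLC6A6 had 10.3, 10.8 and 11.3 FPKM in exposed cells, against 23.1, 25.9 and 26.3 FPKM in unexposed replicates 1 to 3 and 10.04, 10.5 and 10.3 FPKM in replicates 4 to 6. Exposed libraries overlapped the second set and lay below all of the first. The difference was -0.55 to -0.52 (SE 0.25, limma adjusted p 0.07697 to 0.101), and it was called in all 5 exposures without unexposed replicate 4, 5 or 6 (0.0243 to 0.0404). SLC6A11 had 5.13, 6.09 and 6.45 FPKM in exposed cells, against 5.47, 5.31 and 4.898 FPKM in unexposed replicates 1 to 3 and 8.09, 6.99 and 7.93 FPKM in replicates 4 to 6, between the 2 sets.

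SLC36A1 (PAT1), which moves small amino acids out of lysosomes with protons, had 1.77, 2.14 and 2.36 FPKM in exposed cells, against 3.09, 3.37 and 3.896 FPKM in unexposed replicates 1 to 3 and 2.59, 2.55 and 2.54 FPKM in replicates 4 to 6. It was lower without overlap, with a change of -0.38 to -0.25 (SE 0.09, largest limma adjusted p 0.02595). Its AMPA+2,4-D call was lost without any one AMPA+2,4-D library (0.0629 to 0.0693) or without unexposed replicate 2 (0.0513). SLC43A1 (LAT3), a uniporter of leucine and other large neutral amino acids, had 24.1, 26.3 and 28.3 FPKM in exposed cells, against 32.3, 30.8 and 30.6 FPKM in unexposed replicates 1 to 3 and 36.9, 37.4 and 34.1 FPKM in replicates 4 to 6. It was lower, with a change of -0.39 to -0.31 (SE 0.06, largest limma adjusted p 0.000212). SLC43A2 (LAT4), with the same substrates, had 5.95, 6.66 and 7.94 FPKM in exposed cells, against 6.19, 5.67 and 5.498 FPKM in unexposed replicates 1 to 3 and 9.14, 7.88 and 8.15 FPKM in replicates 4 to 6, and was not called.

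Most of these genes differed between the 2 sets of unexposed libraries. Between replicates 1 to 3 and 4 to 6, 24 of 31 members were called, 11 higher and 13 lower in the first set (limma, 77.4% of members beside 31.6% of all genes, 15.9% higher and 15.7% lower), and the sets did not overlap for 25 of 31 (80.6% beside 45.5%). The largest differences, replicates 1 to 3 minus 4 to 6, were 1.21 for SLC6A6, 0.65 for SLC6A12, 0.52 for SLC3A2 and 0.44 for SLC38A6 among those higher in the first set (SE 0.04, 0.15, 0.04 and 0.11, limma adjusted p 6.4e-12, 0.00342, 5.8e-08 and 0.00381). Among those lower in the first set they were -1.24 for SLC1A7, -1.18 for SLC1A2, -1.001 for SLC6A8 and -0.48 for SLC38A4 (SE 0.09, 0.06, 0.06 and 0.09, limma adjusted p 8.3e-09, 5.3e-10, 2.7e-09 and 0.000429). For SLC6A4 the difference of -0.23 was lost without unexposed replicate 2, 3, 5 or 6 (0.0566 to 0.127), and for SLC6A9 that of 0.32 without replicate 3 or 4 (0.0604 and 0.0576). SLC7A1 was called without replicate 1 or 5 (0.0429 and 0.04895) and SLC38A3 without replicate 3 (0.0320).

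Taken against each set apart, 16 members were called in the same direction in all 5 exposures. Against replicates 1 to 3, 27 members were called with glyphosate (57.5% of all genes), 27 with AMPA (58.0%), 28 with 2,4-D (54.1%), 26 with glyphosate+2,4-D (54.8%) and 29 with AMPA+2,4-D (55.3%). Against replicates 4 to 6 the counts were 25 with glyphosate (51.1%), 24 with AMPA (51.3%), 24 with 2,4-D (46.4%), 24 with glyphosate+2,4-D (46.7%) and 24 with AMPA+2,4-D (50.3%). SLC6A8, SLC6A14, SLC7A6, SLC38A2 and SLC38A4 were higher against each set in all 5 exposures (5 of 31, beside 13.4% of all genes). SLC1A4, SLC6A4, SLC6A9, SLC6A12, SLC7A1, SLC7A5, SLC7A9, SLC7A11, SLC38A3, SLC38A10 and SLC43A1 were lower against each set in all 5 (11 of 31, beside 10.7%). Of these genes, SLC38A4 and SLC6A12 passed the filter only through the group where they were higher, so their calls are not independent of it.

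Among the others, some kept their direction with fewer calls, and some were called against 1 set alone or changed direction. SLC36A1, SLC38A5 and SLC38A7 were lower against both sets, called in 5 exposures against replicates 1 to 3 and in 4 against replicates 4 to 6. SLC1A5 stayed lower and SLC1A7 higher, both called in 5 against the first set, and in 2 and 3 against the second. SLC3A2 and SLC6A6 were lower against replicates 1 to 3 in all 5 exposures and were called in none against replicates 4 to 6 (5.17% of all genes showed such a pattern). SLC38A1 showed the reverse, higher against replicates 4 to 6 by 0.15 to 0.27 and uncalled against replicates 1 to 3 (2.63% of all genes). SLC6A11, SLC7A2 and SLC43A2 were higher than the first set and lower than the second in at least 1 exposure (3.21% of all genes): for SLC43A2 the change was 0.15 to 0.34 against replicates 1 to 3 and -0.32 to -0.13 against replicates 4 to 6.

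**Figure D4:**
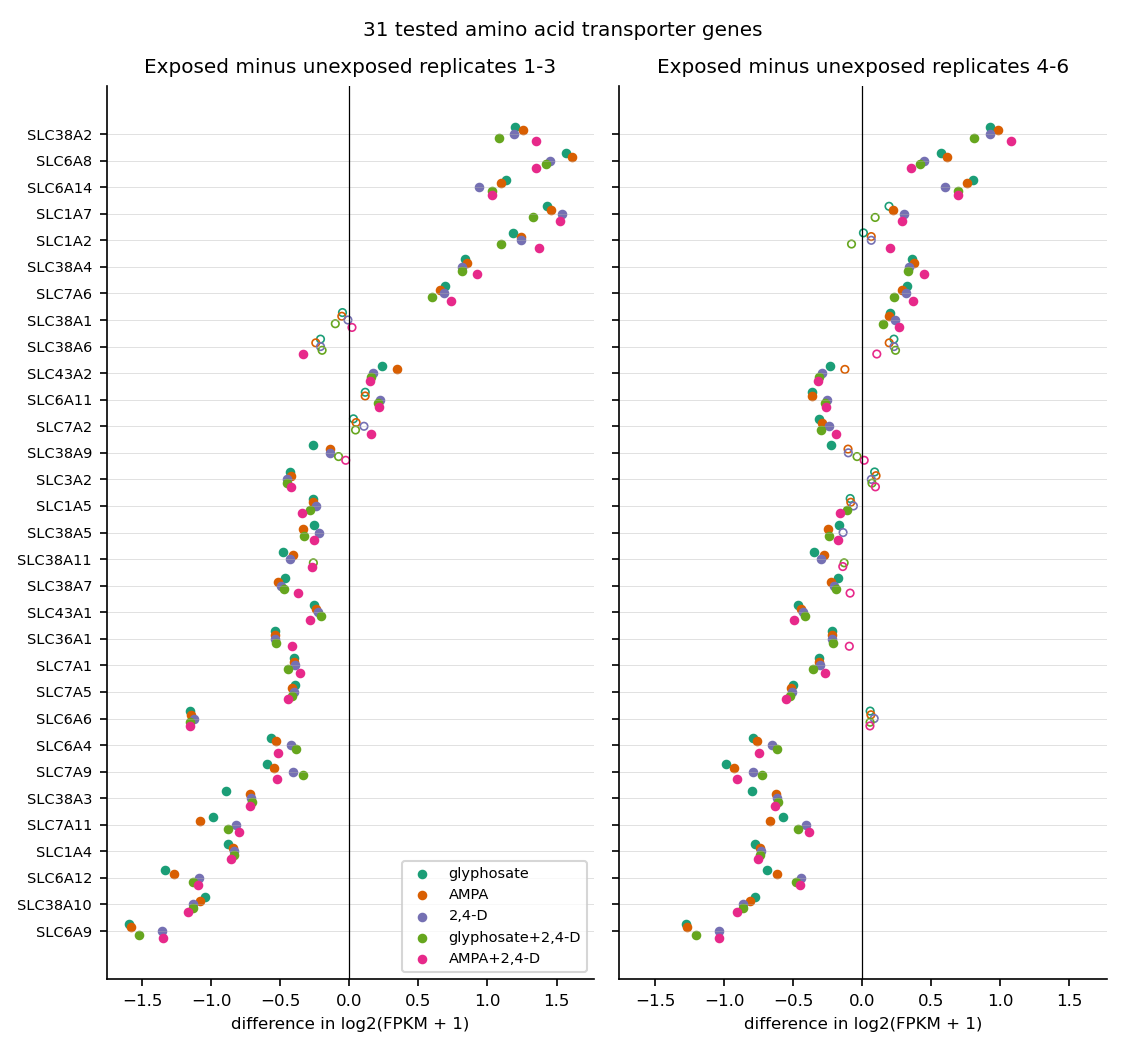
Change of the 31 tested members in each exposure, as exposed minus unexposed replicates 1 to 3 (left) and exposed minus replicates 4 to 6 (right), in log2(FPKM + 1). Filled points were called by limma at an adjusted p under 0.05 and open points were not, and SLC6A6, SLC3A2, SLC1A2 and SLC1A7 lie further from 0 on the left than on the right.

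Between exposures few members differed, and how many passed the test turned on how the unexposed libraries entered the fit. In the 8 comparisons of mixtures with their components and of compounds or mixtures with each other, 0 of 31 members were called with all unexposed libraries as 1 group (limma, adjusted over all genes within each comparison), where 2.71% of all genes were for AMPA+2,4-D against AMPA, 0.261% for AMPA+2,4-D against glyphosate+2,4-D and 0% for the other 6. At an unadjusted p under 0.05 there were 2 members for glyphosate+2,4-D against glyphosate, 0 for glyphosate+2,4-D against 2,4-D, 2 for AMPA+2,4-D against AMPA, and 1 each for AMPA+2,4-D against 2,4-D, AMPA against glyphosate, 2,4-D against glyphosate, 2,4-D against AMPA and AMPA+2,4-D against glyphosate+2,4-D. In that fit the difference between the unexposed sets enters the spread, and the 95% interval of a difference was, over members, a median of 0.22 log2 units wide on each side and at most 0.64.

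With the unexposed sets as 2 groups, a fit chosen after seeing the data, the intervals were a median of 0.13 wide on each side and at most 0.32, and 5 differences passed. For AMPA+2,4-D against AMPA 3 of 31 members were called, beside 9.56% of all genes. SLC7A11 was higher by 0.28 (95% interval 0.15 to 0.41, limma adjusted p 0.0123), while SLC6A8 was lower, at -0.26 (-0.39 to -0.12, 0.0183), and SLC43A2 lower, at -0.20 (-0.32 to -0.07, 0.0435). For AMPA+2,4-D against glyphosate+2,4-D 2 of 31 were called, beside 5.24% of all genes, SLC38A2 higher by 0.26 (0.15 to 0.38, 0.0147) and SLC1A2 higher by 0.28 (0.14 to 0.41, 0.0240). SLC7A11 and SLC6A8 thus lay closer to their unexposed levels with AMPA+2,4-D than with AMPA. In the other 6 comparisons 0 members were called, beside 0.224% of all genes for glyphosate+2,4-D against glyphosate, 0.0448% for AMPA+2,4-D against 2,4-D, 0.0522% for 2,4-D against AMPA and 0% for the remaining 3, and 1 to 5 members had an unadjusted p under 0.05. For comparison, the 5 exposed group means of a member spanned a median of 0.14 on the log2 scale, and the pooled SD within groups was a median of 0.07.

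With the unexposed libraries as 1 group, the smallest p-values between exposures fell on few genes. SLC38A2 was higher with AMPA+2,4-D than with glyphosate+2,4-D by 0.26 (95% interval 0.08 to 0.44, limma adjusted p 0.148), with 516, 491 and 515 FPKM against 429.6, 425 and 413 FPKM. The value for SLC38A9 in glyphosate+2,4-D minus glyphosate was 0.19 (95% interval 0.08 to 0.29, limma adjusted p 0.305). SLC38A9 also differed by 0.12, without a call, in 2,4-D and in AMPA minus glyphosate, and in AMPA+2,4-D minus AMPA and minus 2,4-D. For SLC7A11 AMPA+2,4-D minus AMPA gave 0.28 (95% interval 0.03 to 0.53, limma adjusted p 0.208), and 2,4-D minus AMPA gave 0.26 (0.01 to 0.51, 0.671). Among negative differences the smallest p-values were those of SLC6A14 in 2,4-D minus glyphosate, -0.20 (-0.43 to 0.03, 0.805), and of SLC1A5 in AMPA+2,4-D minus 2,4-D, -0.10 (-0.23 to 0.03, 0.609). None of these passed the adjustment in that fit.

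**Figure D5:**
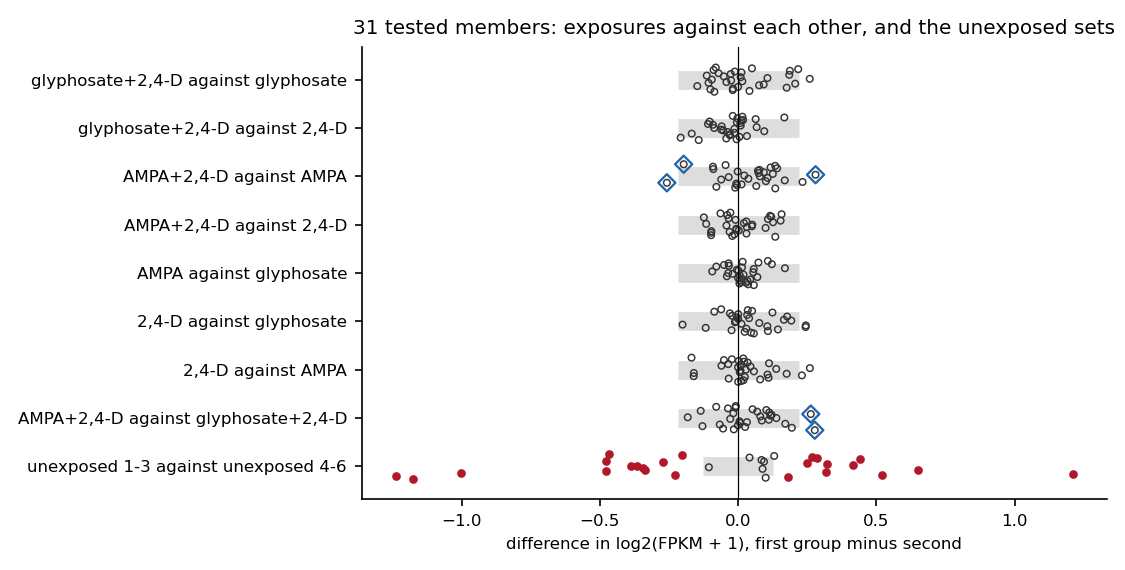
Differences of the 31 tested members in log2(FPKM + 1) for the 8 pairs of exposures and, in the bottom line, for unexposed replicates 1 to 3 minus 4 to 6. Grey bars span the median 95% interval around 0 of each line's fit, wider in the upper 8 lines, whose fit takes all unexposed libraries as 1 group, than in the bottom one, which takes them as 2. Filled points were called in these fits, 0 in the upper lines and 24 in the bottom one, and diamonds mark the 5 points of the upper lines that were called with the unexposed sets as 2 groups.

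Whether the mixtures departed from the sum of their components was asked by an interaction, mixture plus unexposed minus both single compounds. It was called for 20 members for glyphosate with 2,4-D, 15 positive and 5 negative (limma, beside 33.6% of all genes, 15.6% positive and 17.9% negative), and for 21 for AMPA with 2,4-D, 16 positive and 5 negative (beside 36.7%, 16.9% positive and 19.8% negative). For SLC6A9 it was 1.27 and 1.43 (SE 0.16, limma adjusted p 1.2e-05 and 3.1e-06), and for SLC38A2 -1.17 and -0.97 (SE 0.11, limma adjusted p 8.2e-07 and 6e-06). Where single compounds and mixtures share nearly the same level, as in these genes, this term is close to the unexposed level minus the exposed one.

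Genes that share pathways with the transporters were counted from lists chosen, like the members, with earlier results known. Of 30 amino acid response genes 29 were tested, and 22 or 23 were lower and 1 or 2 higher in each exposure, with a median change of -0.46 to -0.36. That is 75.9% to 79.3% of the list lower and 3.45% to 6.90% higher, beside 22.6% to 25.1% and 25.0% to 28.0% of all genes. CHAC1, which breaks down glutathione, had 2.03 to 2.94 FPKM as the means of the 5 exposures, against 5.78 ± 0.809 FPKM in unexposed cells (SD, n = 6), a change of -1.16 to -0.78 (SE 0.13, largest limma adjusted p 8.4e-05). NUPR1, a stress-induced nuclear protein, had 6.11 to 8.22 FPKM as the means of the 5 exposures, against 14.8 ± 1.97 FPKM in unexposed cells (-1.14 to -0.76, 5.4e-07). WARS, the cytosolic tryptophanyl-tRNA synthetase, had 35.8 to 40.6 FPKM as the means of the 5 exposures, against 72.4 ± 9.23 FPKM in unexposed cells (-0.99 to -0.81, 2e-07), and DDIT3 (CHOP), a transcription factor of the stress response, had 63.3 to 69.7 FPKM as the means of the 5 exposures, against 122 ± 15.6 FPKM in unexposed cells (-0.92 to -0.79, 1.6e-06). Chosen after its values were seen, ATF4 itself had 274 to 291 FPKM as the means of the 5 exposures, against 315 ± 2.46 FPKM in unexposed cells and was lower, with a change of -0.20 to -0.11 (largest limma adjusted p 0.00786). ASNS, asparagine synthetase, chosen in the same way, had 1.91 to 2.33 FPKM as the means of the 5 exposures, against 2.25 ± 0.0882 FPKM in unexposed cells and was not called.

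The other 3 lists held genes that changed in both directions. Among 15 tested of 26 other amino acid transport genes 3 or 4 were higher and 6 or 7 lower in each exposure (20% to 26.7% and 40% to 46.7%, beside 25.0% to 28.0% and 22.6% to 25.1% of all genes). The lysosomal cystine exporter CTNS had 4.06 to 4.75 FPKM as the means of the 5 exposures, against 7.65 ± 1.01 FPKM in unexposed cells (SD, n = 6) and the mitochondrial carrier of basic amino acids SLC25A29 1.79 to 2.03 FPKM as the means of the 5 exposures, against 3.24 ± 0.257 FPKM in unexposed cells, both lower in all 5. The mitochondrial serine carrier SFXN1 had 9.47 to 10.1 FPKM as the means of the 5 exposures, against 6.34 ± 0.786 FPKM in unexposed cells and CLTRN, a partner of SLC6A19 in the kidney, 1.84 to 2.22 FPKM as the means of the 5 exposures, against 1.05 ± 0.184 FPKM in unexposed cells, both higher in all 5 (largest limma adjusted p of the 4 genes 0.000265). Of 21 tested of 22 glutamine and glutathione genes 3 or 4 were higher and 9 to 11 lower (14.3% to 19.0% and 42.9% to 52.4%), among them CHAC1 again, CTH, which makes cysteine from cystathionine, with 4.87 to 5.61 FPKM as the means of the 5 exposures, against 9.46 ± 1.73 FPKM in unexposed cells, the aminopeptidase ANPEP with 28.6 to 32.7 FPKM as the means of the 5 exposures, against 46.8 ± 3.495 FPKM in unexposed cells, and the alanine aminotransferase GPT with 2.19 to 2.51 FPKM as the means of the 5 exposures, against 3.66 ± 0.0724 FPKM in unexposed cells. Of 32 tested of 36 genes of amino acid sensing upstream of mTORC1, 6 to 9 were higher and 9 or 10 lower. These shares, 18.8% to 28.1% higher and 28.1% to 31.2% lower, stand beside 25.0% to 28.0% and 22.6% to 25.1% of all genes. RPTOR, the scaffold of mTORC1, changed by -0.56 to -0.50, the leucine sensor SESN2 by -0.51 to -0.36, the KICSTOR gene C12orf66 by -0.55 to -0.35 and the Ragulator subunit LAMTOR5 by 0.43 to 0.55 (largest limma adjusted p 0.00387). SESN2 is also among the amino acid response genes, and CTH and CHAC1 are in both of their lists.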

How the data were processed

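Total RNA of C3A cells was sequenced after SMARTer library preparation, per the labels, with the strand setting not given in the sources used here. The authors deposited FPKM per gene in 6 tables, a table per group, covering 21 libraries. HISAT2 2.0.5, featureCounts 1.5.0-p3 and GRCh38 are named by the submitters' processing notes. How FPKM were scaled is not stated. Multiplied by gene length, 100% of values in every library were whole reads to within 0.1 of a read, which gave back 15.2 to 24.35 M reads per library. The total implied by the FPKM, over the recovered reads, was 0.942 to 1.009 in exposed and 1.029 to 1.082 in unexposed libraries. Read numbers carry counting error only, whereas the 95% intervals come from the spread between libraries in the limma fit.

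The test, on log2(FPKM + 1), took genes listed in all 6 tables that had 1 FPKM or more in 3 libraries or more. It used limma 3.58.1 (R 4.3.3), with group means over all 21 libraries, a mean-variance trend and Benjamini-Hochberg adjustment within each comparison. A call is an adjusted p under 0.05. Comparisons with either unexposed set used 7 groups, the others 6, and comparisons between exposures were also run with 7, chosen after seeing the data. The sets follow the numbers in the sample titles and the pattern of the data, and no label calls them batches. The procedure was also run on simulated libraries with known changes in the glyphosate group alone. These held no difference between the unexposed sets and far fewer changed genes, so they do not test the fits under the conditions found here. Coordinates are those of the files, and 28803 of 28808 genes have the same ones in GENCODE release 29.

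The members, gene lists and unexposed sets were chosen with earlier results of these data known. Every library is given for up to 12 members called in all 5 exposures without overlap, by mean change, and for SLC3A2, SLC7A5, SLC7A11, SLC1A5, SLC38A2 and SLC3A1. For the unexposed sets and interactions up to 4 called members each way were named, for exposures against each other the 2 each way with the smallest p, and from each other list up to 4 genes. Other settings were TPM, median-of-ratios scaling, no filter, a pseudocount of 0.1, voom on the recovered reads, fits of the compared groups alone, the replicate number as a block, and each library left out in turn. Same-numbered libraries of different groups did not deviate together (correlations of their deviations -0.119 to 0.0884 over 45 pairs, beside -0.107 to 0.101 over 90 pairs with different numbers), so the numbers were not taken to pair samples.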

Additional observations from a re-analysis of the deposited data

Results flagged for a closer look

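The test of the interaction itself, mixture plus unexposed minus both single compounds, passed for 20 members for glyphosate with 2,4-D and for 21 members for AMPA with 2,4-D (limma, adjusted p under 0.05), beside 33.6% and 36.7% of all genes. Where all exposures share nearly the same level, this term is close to the unexposed level minus the exposed one. For glyphosate with 2,4-D the largest positive values were 1.27 for SLC6A9, 0.97 for SLC6A12, 0.91 for SLC38A10 and 0.86 for SLC7A9, and the largest negative ones -1.17 for SLC38A2, -1.10 for SLC6A8, -0.87 for SLC6A14 and -0.61 for SLC38A4. For AMPA with 2,4-D they were 1.43 for SLC6A9, 0.94 for SLC6A12, 0.91 for SLC38A10 and 0.89 for SLC7A11, and -1.21 for SLC6A8, -0.97 for SLC38A2, -0.83 for SLC6A14 and -0.51 for SLC38A4. Each of these genes with a positive value was lower, and each with a negative one higher, in every exposure than in unexposed cells. Both interactions use the same 6 unexposed libraries and the same 2,4-D libraries. SLC6A12 passed the filter through unexposed and SLC38A4 through exposed libraries alone, so their values are not independent of it.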

How the results depend on the processing

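With each library left out in turn, the members called against all unexposed libraries numbered 21 to 25 for glyphosate, 20 to 25 for AMPA, 21 to 25 for 2,4-D, 20 to 24 for glyphosate+2,4-D and 19 to 24 for AMPA+2,4-D. Of 114 calls 15 were lost and 11 gained without some library, each named in the report beside its gene. Between unexposed sets 23 to 26 were called and, with the unexposed libraries as 1 group, 0 between exposures. Median-of-ratios scaling and a pseudocount of 0.1 changed 0 of these 155 member results, no filter ended 4 calls, TPM added 13 and ended 3, voom added 2, and fits of the compared groups alone ended 14. All calls that TPM added were lower. They were SLC6A6 in every exposure but 2,4-D, SLC7A2 with glyphosate, AMPA and glyphosate+2,4-D, and SLC3A2 with AMPA and glyphosate+2,4-D. The rest were SLC38A11 with both mixtures, SLC6A11 with AMPA and SLC38A9 with glyphosate+2,4-D. The causes were not tested.

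With the replicate number as a block, which by construction compares exposures with unexposed replicates 1 to 3 alone, 27, 27, 28, 27 and 29 members were called in the 5 exposures, in the order above, beside 52.6% to 56.8% of all genes, and 3 were called between exposures, beside at most 6.92% of all genes in a comparison. With the unexposed sets as 2 groups, a fit chosen after seeing the data, 5 were called between exposures, where the spread no longer holds the difference between the sets. Under the block SLC6A11 turned to 0.22 with 2,4-D, 0.21 with glyphosate+2,4-D and 0.21 with AMPA+2,4-D, SLC43A2 to 0.17, 0.15 and 0.15, and SLC7A2 to 0.16 with AMPA+2,4-D. The block could not be fitted against replicates 4 to 6, whose numbers no exposed library shares, and was not run between the unexposed sets.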
